A study of Mus musculus with 70 samples.

Results

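Ly6C-low monocytes of susceptible (SUS) mice were compared with those of unstressed control (CON) mice across all genes. The libraries were chosen by their labels, the cell type Ly6low with the condition SUS or CON, which gave 10 of the 70 libraries of the series, 6 of SUS and 4 of CON mice. The study exposed C57BL/6J mice to chronic social defeat stress (CSDS), in which a larger, aggressive CD-1 mouse repeatedly attacks the experimental mouse and shares its cage across a perforated divider. Stressed mice were sorted by a social interaction test into SUS mice, which avoid an unfamiliar mouse, and resilient (RES) mice, which do not. CON mice lived in pairs across a divider and met no aggressor. Trunk blood was lysed to remove red cells, and leukocytes were sorted with antibodies to CD11b, Ly6C, Ly6G, B220 and CD90.2 directly into Trizol. The labels name brain as the source of every library while the study's methods describe blood, and this conflict was not resolved. The labels give no age, sex, batch or mouse for a library, so nothing shows whether libraries of different cell types came from the same mouse, and p-values measure the spread between these libraries. The 6 Ly6low libraries of RES mice entered the fit as a further group that shares the estimate of spread. Replicate numbers used below follow the order of the library numbers within each group and do not come from the labels.

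Ly6C-low monocytes, also called patrolling or non-classical monocytes, crawl along the inner wall of blood vessels, where they take up debris and survey the endothelium. They arise mainly from Ly6C-high classical monocytes, and the nuclear receptor Nr4a1 is needed for this step and for their survival. They carry little of the chemokine receptor Ccr2 and much of Ace, Cx3cr1, Spn (CD43) and Itgal (the alpha chain of LFA-1). Sorting on CD11b and low Ly6C can also admit natural killer cells and dendritic cells, both of which can carry CD11b. In bulk RNA, fewer cells of a type and less RNA per cell cannot be told apart.

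The 10 libraries held 22952329 to 38897675 counted reads each, and the range of CON libraries (27095178 to 35280211) lay within that of SUS libraries. Levels are given as read counts scaled to a fixed library total after TMM normalisation (CPM), with the SD over libraries. Ace, which encodes angiotensin-converting enzyme, stood at 3140.0 ± 415 CPM in CON (n = 4) and 3236 ± 406 CPM in SUS libraries (n = 6). Nr4a1 stood at 1119.8 ± 73.6 CPM in CON and 1208 ± 152 CPM in SUS libraries. In Ly6C-high libraries, normalised separately, Ace ranged over 210.0 to 315 CPM and Nr4a1 over 226 to 376 CPM in CON mice. Ly6c2, one of the genes for Ly6C, reached at most 3.15 CPM in any of the 10 Ly6low libraries and 236 to 283 CPM in Ly6C-high CON libraries. The label Ly6low matched the defining markers in both groups. Neither Ace (log2 fold change 0.04 ± 0.09, adjusted p = 0.955) nor Nr4a1 (log2 fold change 0.11 ± 0.10, adjusted p = 0.828) passed the test between SUS and CON. CON replicate 2 stood apart from all other Ly6low libraries on the second principal component, which held 8.45% of the variance. The summed share of Gm23935 and Gm26917, which mark ribosomal-type RNA, varied from 0.467% to 13.1% of counts across the 10 libraries and overlapped between the groups.

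Few genes separated SUS from CON mice. A gene was called where its adjusted p was below 0.05 and its level changed by more than 2-fold in either direction. Of 19521 genes tested, 17 were called (0.0871%), 10 higher (0.0512%) and 7 lower (0.0359%) in SUS mice, all 17 protein-coding. With offsets for GC content and gene length 12 genes were called, 11 higher and 1 lower, and DESeq2 called 103 genes, 64 higher and 39 lower, the 17 among them. Of the called genes, 16 are described here. Those that rose in SUS mice were Abca13, Il21r, F11r, Cd38, Fam20c, Gda, Lifr, Fcgr1 and Serpinb6a. Those that fell were Adam23, Tlr11, Cadm3, Rasgef1b, Atf3, Slc46a3 and Zbtb46. The adjusted p alone was under 0.05 for 47 genes (0.241%), 31 higher (0.159%) and 16 lower (0.082%). An unadjusted p under 0.05 was found for 1857 genes (9.51%), 1039 higher (5.32%) and 818 lower (4.19%), and the median log2 fold change of all genes tested was -0.01. In 14 of the 17 called genes every SUS library lay on one side of every CON library, 9 of them higher and 5 lower. Among all genes tested 1.93% did so, 1.07% higher and 0.855% lower. The p-values come from edgeR's quasi-likelihood test with Benjamini-Hochberg adjustment over all genes tested, and fold changes carry the SE of that fit. Gene positions are those of the mouse build GRCm38.

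**Figure D1:**
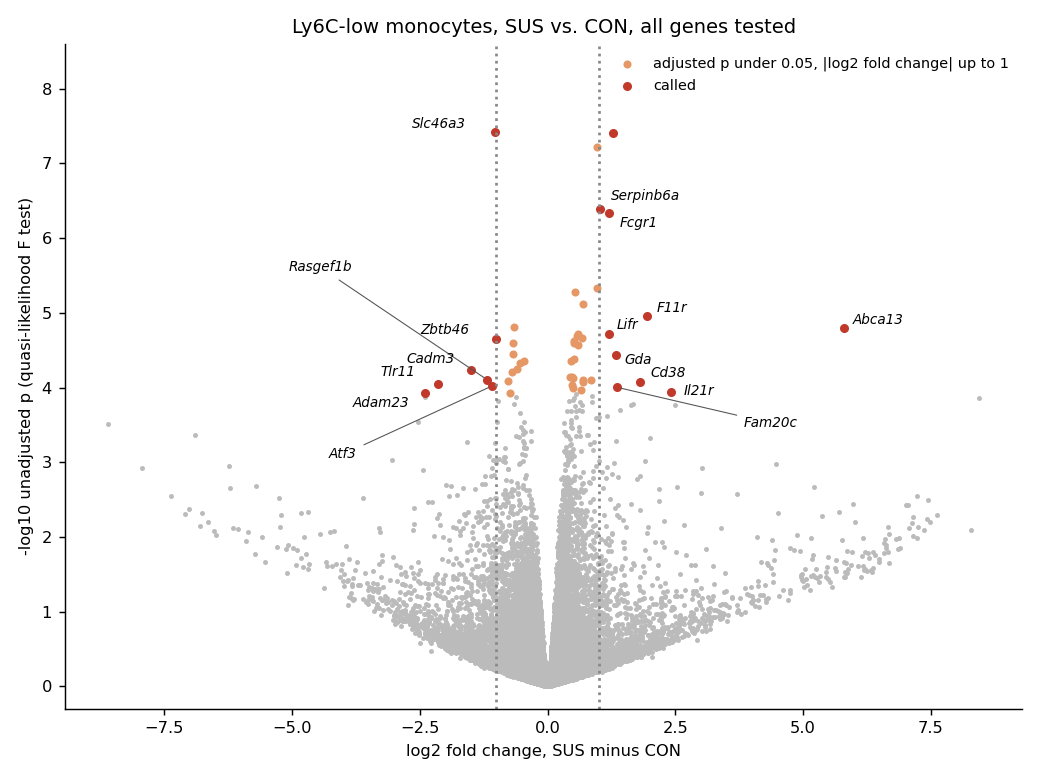
Log2 fold change of SUS minus CON Ly6C-low monocytes (x axis) against -log10 of the unadjusted p (y axis), 1 point per gene, for the 19521 genes tested. Red points are the 17 called genes and orange points the other 30 genes with an adjusted p under 0.05, and dotted lines mark log2 fold changes of -1 and 1.

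Receptors were among the genes that rose. Fcgr1 (chr3:96282909-96293969) encodes CD64, the high-affinity receptor for IgG, and its levels in the 4 CON libraries were 17.7, 19.0, 20.5 and 30.1 CPM. SUS libraries ranged from 34.2 to 64.4 CPM with a median of 49.8. The groups did not overlap, and the SUS mean was 2.29-fold higher (log2 fold change 1.20 ± 0.18, adjusted p = 0.00178). Il21r (chr7:125603429-125633570) encodes the specific chain of the interleukin-21 receptor, which signals together with the common gamma chain. It stood at 3.12, 8.79, 5.07 and 8.36 CPM in CON libraries and ranged from 12.0 to 49.5 CPM with a median of 37.9 in SUS libraries. These groups did not overlap, and the mean was 5.38-fold higher in SUS mice (log2 fold change 2.43 ± 0.47, adjusted p = 0.0490). Lifr (chr15:7090614-7197489) encodes the receptor for leukaemia inhibitory factor, which pairs with gp130. Its CON levels were 44.4, 42.1, 59.3 and 54.5 CPM. In SUS libraries Lifr ranged from 71.2 to 163 CPM with a median of 118. The lowest SUS library lay above the highest CON library, with a mean 2.31-fold higher (log2 fold change 1.21 ± 0.21, adjusted p = 0.0260).

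The partner chains of these receptors did not pass the test. Il2rg, the common gamma chain, had a log2 fold change of -0.11 (adjusted p = 0.884), and Il6st, which encodes gp130, of -0.63 (adjusted p = 0.296). Of the 20 tested cytokine and growth factor receptors in the list, Il21r was called (Lifr is not in that list). Il4ra, the interleukin-4 receptor alpha chain, passed the adjusted p without the fold (log2 fold change 0.68 ± 0.13, adjusted p = 0.0260). Il4ra ranged over 104 to 125 CPM in CON and 141 to 225 CPM in SUS libraries, with no overlap. The median of that list was -0.06, against -0.01 for all genes. Of the 10 Fc receptor genes tested, Fcgr1 was called. Fcgr4, which encodes the IgG receptor CD16-2 and is itself a marker of patrolling monocytes, was at 130.1 to 242 CPM in CON and 256 to 442 CPM in SUS libraries without overlap and just missed the adjusted p (log2 fold change 0.96 ± 0.20, adjusted p = 0.0661). Fcer1g, the signalling chain shared by activating Fc receptors, had a log2 fold change of 0.41 (adjusted p = 0.168). Fcgr2b, the inhibitory IgG receptor, had one of -0.37 (adjusted p = 0.295). The summed level of the Fc receptor genes was 969.5 to 1173 CPM in CON and 1251 to 1669 CPM in SUS libraries, with every SUS library above every CON library.

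One pattern-recognition receptor fell. Tlr11 (chr14:50357914-50363663), an endosomal Toll-like receptor of mice that recognises profilin of protozoan parasites, was at 9.78, 3.82, 8.75 and 5.95 CPM in CON libraries. Its SUS levels ranged from 0.615 to 3.15 CPM with a median of 1.29. The groups did not overlap, and the CON mean was 4.44-fold higher (log2 fold change -2.15 ± 0.47, adjusted p = 0.0444). It was the only called gene among 12 Toll-like receptors. The nucleic acid receptor Tlr9 was at 74.2 to 111 CPM in CON and 52.8 to 73.4 CPM in SUS libraries but did not pass (log2 fold change -0.46 ± 0.12, adjusted p = 0.104). Tlr7 and Tlr13, the most abundant of the list, had log2 fold changes of 0.05 (adjusted p = 0.969) and 0.20 (adjusted p = 0.645).

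Promoter windows are shown for Fcgr1 and Tlr11, the called innate receptors, which moved in opposite directions. They are the 250 bases before the annotated start from RefSeq (GRCm38.p6), written 5′ to 3′ on the gene's strand, with the letters of matched motifs in capitals. The Fcgr1 window lies at chr3:96293970-96294219 on the minus strand and the Tlr11 window at chr14:50357664-50357913 on the plus strand.
Fcgr1: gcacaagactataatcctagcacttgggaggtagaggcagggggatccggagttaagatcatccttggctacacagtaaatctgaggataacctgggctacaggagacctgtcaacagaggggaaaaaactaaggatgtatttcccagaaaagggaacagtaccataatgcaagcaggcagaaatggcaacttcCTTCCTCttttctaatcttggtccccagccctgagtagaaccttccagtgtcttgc
Tlr11: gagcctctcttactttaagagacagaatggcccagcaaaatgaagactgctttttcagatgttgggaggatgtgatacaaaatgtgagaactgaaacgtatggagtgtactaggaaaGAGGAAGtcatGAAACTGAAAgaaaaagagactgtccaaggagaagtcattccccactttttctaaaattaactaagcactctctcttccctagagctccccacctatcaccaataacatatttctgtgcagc
The Fcgr1 window held 1 match to GAGGAAG, a PU.1-type motif, and the Tlr11 window held 1 match to GAGGAAG and 1 to an interferon-stimulated response element, searched as GAAA, 2 bases of any kind and GAAA. Both strands were searched, the Fcgr1 match lies on the opposite strand, and the Tlr11 matches do not overlap. GAGGAAG occurs in 10.6% and the response element in 2.98% of all 32851 such windows. Of the 18 windows listed for these 16 genes, 2 held GAGGAAG, 2 held the response element (in Serpinb6a and Tlr11) and 3 held the AP-1 motif TGANTCA (in F11r, Cadm3 and Zbtb46), which occurs in 6.75% of all windows. Also searched were the cyclic AMP response element TGACGTCA (in 1.55% of all windows, none of the 18), the Nr4a motif AAAGGTCA (1.34%, in Il21r alone), the C/EBP motif TTGCNNAA (9.56%, in Gda alone) and the RUNX motif TGTGGTT (4.4%, none of the 18). These matches are letters in a window and no measure of binding.

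Surface molecules of adhesion moved in both directions. F11r (chr1:171437535-171464603) encodes JAM-A, a junctional adhesion molecule of endothelium and leukocytes, and stood at 5.55, 5.43, 3.68 and 9.13 CPM in CON libraries. In SUS libraries it ranged from 9.84 to 35.0 CPM with a median of 25.8. The groups did not overlap, and the SUS mean was 3.88-fold higher (log2 fold change 1.96 ± 0.35, adjusted p = 0.0236). Cadm3 (chr1:173333258-173367695), a nectin-like adhesion molecule best known from neurons, was at 25.6, 20.4, 29.0 and 21.8 CPM in CON libraries. SUS libraries ranged from 4.27 to 12.5 CPM with a median of 8.56. Every SUS library lay below every CON library, and the CON mean was 2.82-fold higher (log2 fold change -1.50 ± 0.31, adjusted p = 0.0408). An exon of Ackr1 on the same strand overlaps Cadm3, so reads there could not be assigned with certainty. Adam23 (chr1:63445891-63596276), a member of the ADAM family without protease activity, was at 2.83, 9.06, 8.71 and 10.2 CPM in CON and ranged from 0.609 to 3.37 CPM with a median of 1.09 in SUS libraries. CON replicate 1 lay within the SUS range, and the CON mean was 5.26-fold higher (log2 fold change -2.39 ± 0.53, adjusted p = 0.0490).

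The other adhesion genes did not pass. Of 20 tested members of the adhesion and transmigration list, 1 rose (F11r) and 1 fell (Cadm3), and the median was 0.07. The remaining JAM family members Jam2 and Jam3 had log2 fold changes of -0.37 (adjusted p = 0.884) and -0.32 (adjusted p = 0.967). Pecam1 (CD31), which supports crossing of the endothelium, had one of 0.82 (adjusted p = 0.217). The integrin chains Itgal, Itgam, Itgb2, Itga4 and Itgb1 lay between 0.10 and 0.22, with Itgal at a mean of 2647 CPM in CON and 2839.8 CPM in SUS libraries.

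Enzymes and transporters made up another group. Cd38 (chr5:43868553-43912375), an ectoenzyme that consumes NAD, was at 3.80, 6.67, 1.60 and 1.75 CPM in CON and ranged from 8.78 to 15.7 CPM with a median of 11.7 in SUS libraries. The groups did not overlap, and the SUS mean was 3.53-fold higher (log2 fold change 1.81 ± 0.39, adjusted p = 0.0439). Gda (chr19:21391307-21473445), guanine deaminase, was the most abundant called gene, at 269, 248, 263 and 291 CPM in CON libraries. In SUS mice Gda ranged from 460.3 to 966 CPM with a median of 672. The lowest SUS library exceeded the highest CON library, and the mean was 2.53-fold higher (log2 fold change 1.34 ± 0.23, adjusted p = 0.0324). Gda is also a member of the classical monocyte marker list described further on. Serpinb6a (chr13:33917918-34002794), an intracellular inhibitor of serine proteases, was at 33.1, 35.3, 30.9 and 33.6 CPM in CON libraries. In SUS libraries it ranged from 48.1 to 88.3 CPM with a median of 68.0. These groups did not overlap, and the mean was 2.05-fold higher (log2 fold change 1.04 ± 0.16, adjusted p = 0.00178). Its exons overlap those of 3 genes on the opposite strand, among them Ripk1 and Nqo2, and close paralogs of the Serpinb family lie nearby. The strand setting of the counting is not given in the sources used here, so reads of these genes may not be fully separated.

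Abca13 (chr11:9191942-9684259), a very large ABC transporter of subfamily A, had the largest fitted change of the called genes and almost no reads in CON mice. The 4 CON libraries held 9, 1, 0 and 0 counts, or 0.263, 0.0269, 0 and 0 CPM, while SUS libraries ranged from 0.913 to 7.73 CPM with a median of 4.28, from 21 to 264 counts. The groups did not overlap (log2 fold change 5.80 ± 1.06, adjusted p = 0.0260). With the CON libraries that held fewer than 3 counts set at 3 counts each, the SUS mean was 31.8-fold higher, and the fitted value depends on how such low counts are treated. Of 10 tested genes of subfamily A, Abca13 was called, and the median of the list was -0.06. The cholesterol exporter Abca1 was at 51.0 to 83.7 CPM in CON and 65.7 to 107 CPM in SUS libraries (log2 fold change 0.36 ± 0.16, adjusted p = 0.451). Abca9 was at 123 to 187 and 66.3 to 145 CPM (log2 fold change -0.65 ± 0.18, adjusted p = 0.188). Slc46a3 (chr5:147878437-147894815), a lysosomal transporter, was at 163, 142, 164 and 142 CPM in CON libraries. In SUS mice Slc46a3 ranged from 60.9 to 101 CPM with a median of 72.4. No SUS library reached the lowest CON library, and the CON mean was 2.04-fold higher (log2 fold change -1.03 ± 0.14, adjusted p = 0.000376). Fam20c (chr5:138754514-138810077), the Golgi kinase that phosphorylates secreted proteins, was at 5.64, 7.10, 17.4 and 8.43 CPM in CON and ranged from 14.4 to 39.2 CPM with a median of 24.3 in SUS libraries. CON replicate 3 lay within the SUS range, and the SUS mean was 2.58-fold higher (log2 fold change 1.37 ± 0.29, adjusted p = 0.0462).

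Genes of transcriptional control and signalling fell. Atf3 (chr1:191170296-191218039), a stress-induced member of the ATF/CREB family that restrains inflammatory genes in macrophages, was at 29.6, 28.6, 36.5 and 29.2 CPM in CON libraries. It ranged from 9.23 to 22.8 CPM with a median of 13.1 in SUS libraries. No SUS library reached the CON range, and the CON mean was 2.13-fold higher (log2 fold change -1.09 ± 0.24, adjusted p = 0.0455). Rasgef1b (chr5:99217426-99729065), an exchange factor for Rap2 that is rapidly induced by Toll-like receptor signals, was at 22.9, 17.9, 21.4 and 16.2 CPM in CON libraries. SUS libraries ranged from 4.91 to 13.3 CPM with a median of 7.68, without overlap. The CON mean was 2.27-fold higher (log2 fold change -1.18 ± 0.25, adjusted p = 0.0436). Zbtb46 (chr2:181387762-181459426), a zinc finger factor of classical dendritic cells, was at 48.5, 23.0, 46.9 and 32.7 CPM in CON and ranged from 13.8 to 24.1 CPM with a median of 19.2 in SUS libraries. CON replicate 2 lay within the SUS range, and the CON mean was 2.00-fold higher (log2 fold change -1.0 ± 0.20, adjusted p = 0.0260). Zbtb46 and Slc46a3 lay just inside the fold threshold, and Dpep2, at a log2 fold change of 0.98, just outside it.

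**Figure D2:**
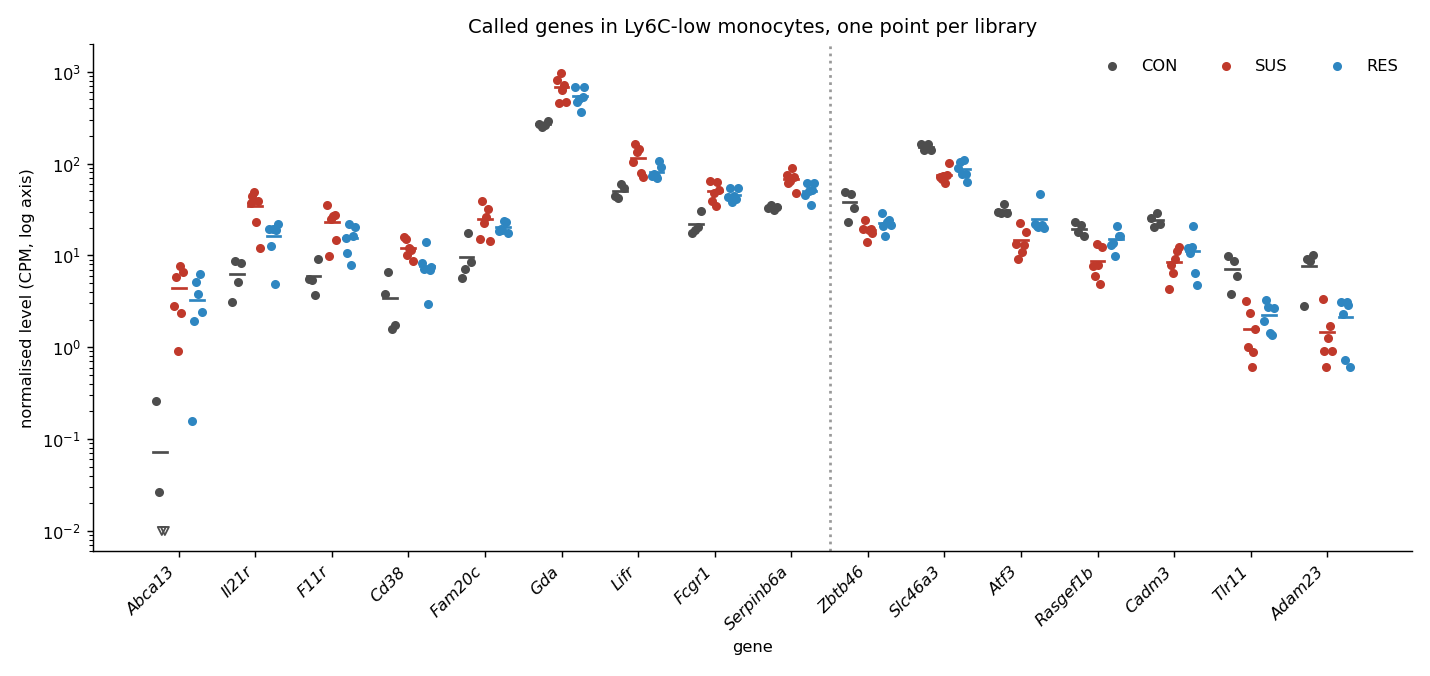
Normalised level (CPM, log axis) of the 16 called genes described here in each Ly6C-low library, 4 CON, 6 SUS and 6 RES, with horizontal bars at the group means and open triangles at the foot for 2 CON libraries with no Abca13 count. Genes left of the dotted line rose and genes right of it fell in SUS mice, and Fam20c, Zbtb46 and Adam23 are the 3 in which CON and SUS libraries overlap.

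Immediate early genes are switched on within minutes of a stimulus and include the AP-1, Egr and Nr4a families. Of the 17 tested, 2 fell (Atf3 and Rasgef1b) and none rose, and the median was -0.20. Rasgef1b, an exchange factor, belongs to none of these families, and the list was chosen with earlier results of these data known. Nr4a3 and Nr4a2 had log2 fold changes of -1.18 (adjusted p = 0.298) and -1.31 (adjusted p = 0.508), and Egr3 one of -1.27 (adjusted p = 0.410). Nr4a1, the most abundant member, had one of 0.11 (adjusted p = 0.828). Fos, Jun and Junb had values of -0.07 (adjusted p = 0.986), -0.15 (adjusted p = 0.935) and 0.32 (adjusted p = 0.940). In the whole list 6 members lay above and 11 below 0, with values from -1.31 to 1.13.

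A further 30 genes passed the adjusted p with smaller changes, 21 higher and 9 lower. Dpep2, a dipeptidase that processes leukotrienes, was at 59.2 to 88.7 CPM in CON and 92.9 to 188 CPM in SUS libraries (log2 fold change 0.98 ± 0.16, adjusted p = 0.0145). Pla2g7, which encodes the phospholipase that inactivates platelet-activating factor, had a log2 fold change of 0.69 (adjusted p = 0.0186). Mdh2, mitochondrial malate dehydrogenase, had a value of 0.61 (adjusted p = 0.0260). Among genes with lower levels, Bcl11a, a transcription factor of lymphoid and plasmacytoid dendritic cells, was at 78.7 to 109.5 CPM in CON and 48.6 to 80.5 CPM in SUS libraries (log2 fold change -0.65 ± 0.12, adjusted p = 0.0260). Tet3, an enzyme that oxidises methylcytosine, and Camkk2, a kinase upstream of AMPK, had log2 fold changes of -0.45 (adjusted p = 0.0344) and -0.53 (adjusted p = 0.0355). Fam102b and Tmem26 both had a value of -0.68. Of these 8 genes, Bcl11a was the one whose groups overlapped.

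Genes of MHC class II presentation, which loads peptides for CD4 T cells, all had lower means in SUS mice. Of the 10 tested, none was called and none passed the adjusted p, while 10 of 10 had an unadjusted p under 0.05, against 9.51% of all genes. The median of the list was -1.06. Cd74, the invariant chain, was at 2372, 1474, 2962 and 1382 CPM in CON libraries. SUS libraries ranged from 677 to 1277 CPM with a median of 1098. The groups did not overlap, with log2 fold change -1.01 ± 0.28, adjusted p = 0.208. H2-Ob, a chain of the regulator H2-O, was at 18.8 to 61.3 and 10.1 to 23.5 CPM (log2 fold change -1.11 ± 0.30, adjusted p = 0.165). H2-Ab1 and H2-Eb1, which encode beta chains of the class II molecules, had log2 fold changes of -1.18 (adjusted p = 0.216) and -1.24 (adjusted p = 0.275). Ciita, the master activator of these genes, had one of -0.81 (adjusted p = 0.391). The summed level of the list was 5021, 2446, 6127 and 2730.1 CPM in the CON libraries and 1326 to 2477 CPM in SUS libraries. CON replicates 1 and 3 held the highest sums, and CON replicates 2 and 4 lay near the upper SUS libraries.

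Dendritic cells carry much MHC class II, and all 6 of their markers also had lower means in SUS mice, with a median log2 fold change of -1.22, and 1, Zbtb46, was called. Clec9a, a receptor for dead cells on type 1 dendritic cells, was at 10.8 to 38.6 CPM in CON and 3.61 to 14.2 CPM in SUS libraries (log2 fold change -1.49 ± 0.54, adjusted p = 0.349). Cd209a and Flt3 had values of -1.44 (adjusted p = 0.469) and -0.91 (adjusted p = 0.435). The summed level was 291, 115, 316 and 148 CPM in the CON libraries, again highest in replicates 1 and 3, and 46.9 to 145 CPM in SUS libraries, 4 of which lay below every CON library. With the mean log2 level of the other 5 markers as a covariate, an alternative added after these levels were seen, 1 gene was called, none of the 16 described here. In that fit the log2 fold changes were -0.56 for Zbtb46, -0.82 for Slc46a3, -1.37 for Cadm3, -1.98 for Tlr11 and -2.47 for Adam23, with adjusted p-values of 0.855, 0.0927, 0.582, 0.682 and 0.577. Rasgef1b had -0.79 there, and among genes that rose F11r had 1.28, Cd38 1.36 and Il21r 1.81. Over the 16 genes the adjusted p-values of that fit ranged from 0.0676 to 0.855. All 5 markers of the covariate had lower means in SUS mice, so it overlaps with the contrast, and calls can be lost through that overlap alone. The part of dendritic cells in these results was not tested. Of 9 B cell markers, none was called, 7 had lower and 2 higher means (Cd79b at 0.29 (adjusted p = 0.895) and Pax5 at 1.57 (adjusted p = 0.714)), and the median was -0.48. Their summed level was 216 to 240.3 CPM in CON and 155 to 204 CPM in SUS libraries, without overlap, and most of it was Ighm at 129.7 to 160.3 and 89.0 to 119 CPM (log2 fold change -0.48 ± 0.12, adjusted p = 0.0952). Without Ighm the sums were 72.2 to 90.6 and 63.2 to 85.4 CPM, which overlap. Cd79a was at 9.43 to 18.5 and 6.44 to 16.2 CPM.

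**Figure D3:**
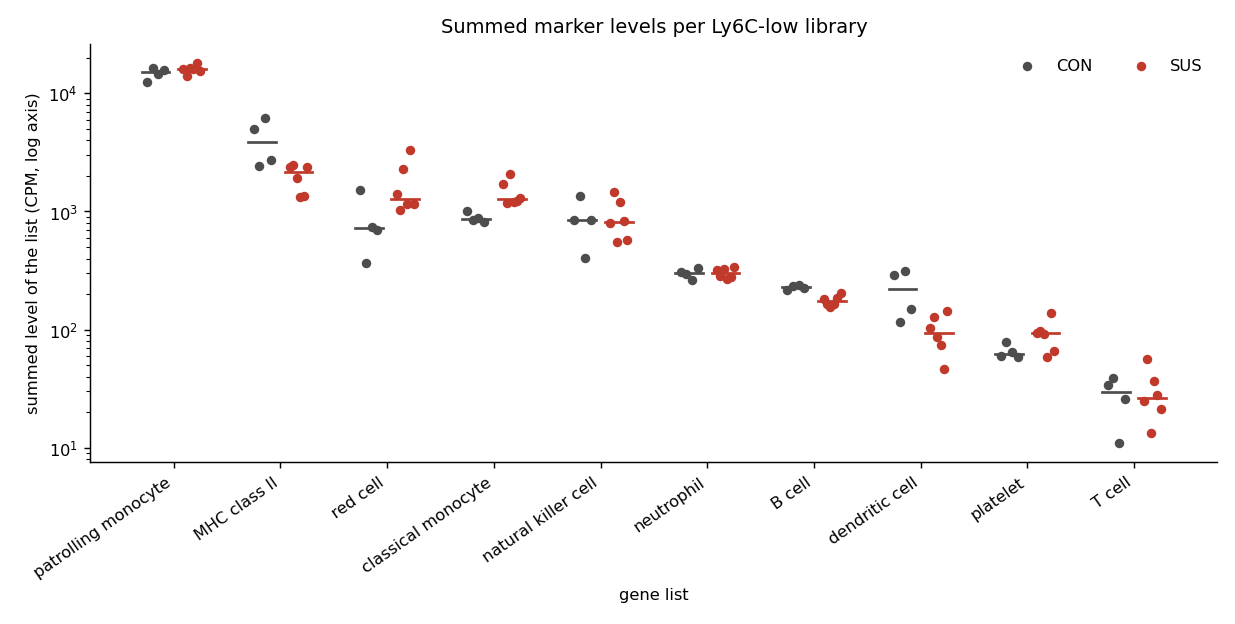
Summed level (CPM, log axis) of the markers of each cell type and of the class II genes in every CON (grey, 4) and SUS (red, 6) Ly6C-low library, with bars at the medians. Every SUS library lies above every CON library for classical monocyte markers (a separation lost without Gda) and below for B cell markers (lost without Ighm).

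Markers of classical monocytes had a higher sum in SUS libraries, which rested on Gda. Of the 12 markers, 1 was called (Gda), 9 had higher and 3 lower means, and the median was 0.70. The summed level was 810.4 to 1009.6 CPM in CON and 1183 to 2079.7 CPM in SUS libraries, with no overlap. Without Gda, the most abundant member, the sums were 519 to 741 CPM in CON and 514 to 1114 CPM in SUS libraries, which overlap. The whole list summed to 15604 to 30147 CPM in Ly6C-high libraries. Chil3, a chitinase-like lectin of myeloid cells, was at 13.1, 7.88, 5.00 and 3.85 CPM in CON and ranged from 27.2 to 71 CPM with a median of 34.2 in SUS libraries, without overlap, and missed the adjusted p (log2 fold change 2.49 ± 0.49, adjusted p = 0.0538). Hp, haptoglobin, had a log2 fold change of 2.00 (adjusted p = 0.0883). The defining markers Ccr2, Vcan and F13a1 had values of -0.19 (adjusted p = 0.946), 0.17 (adjusted p = 0.982) and -0.57 (adjusted p = 0.809). The part of classical monocytes in these results was not tested.

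Markers of red cells, platelets and other leukocytes were also present. The 8 red cell markers all had higher means in SUS mice, with a median of 1.05 and no member called. Their summed level was 368 to 1526 CPM in CON and 1038 to 3285 CPM in SUS libraries, with 2 SUS libraries above every CON library. Slc4a1, the anion exchanger of red cells, was at 4.58 to 5.24 CPM in CON and 7.23 to 54.7 CPM in SUS libraries (log2 fold change 2.24 ± 0.77, adjusted p = 0.319). With the mean log2 level of these markers as a covariate 2 genes were called, among them Slc46a3 (log2 fold change -1.08, adjusted p = 0.0134). All 17 called genes kept their direction in that fit, with absolute log2 fold changes from 0.92 to 5.92. This covariate too overlaps with the contrast, as all 8 markers had higher means in SUS mice. The 11 platelet markers had a median of 0.92 and sums of 58.5 to 78.8 CPM in CON and 58.7 to 138 CPM in SUS libraries. Tubb1, the beta-tubulin of platelets, was at 0.905 to 3.98 and 1.02 to 13.0 CPM (log2 fold change 1.82 ± 0.52, adjusted p = 0.165), and Treml1 at 0 to 0.0340 and 0 to 1.5 CPM. Of 13 neutrophil markers 10 were tested, 8 of them with higher means and a median of 1.48, and none was called. They summed to 261 to 329.6 CPM in CON and 266 to 341 CPM in SUS libraries, most of it Csf3r at 251 to 322 and 199 to 326 CPM. Without Csf3r the sums were 3.93 to 40.4 CPM in CON and 15.0 to 83.6 CPM in SUS libraries, with 3 SUS libraries above every CON library. Ly6g had no count in any of the 10 libraries. Of 6 granule progenitor markers 1 was tested, and their sum reached at most 14.9 CPM, with Mpo at 0 to 3.51 and 0 to 9.63 CPM. Natural killer markers had a median of 0.06 and summed to 407 to 1340.3 CPM in CON and 549.8 to 1448 CPM in SUS libraries, and Gzma, a cytotoxic granule protease, was at 104 to 409 and 176 to 435 CPM with a log2 fold change of 0.16. T cell markers had a median of 0.68 and summed to 11.0 to 39.0 CPM in CON and 13.3 to 55.9 CPM in SUS libraries, and Lef1 was at 1.46 to 18.8 and 1.22 to 25.1 CPM.

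The cells' own markers held no called gene. Of 19 markers of patrolling monocytes, 15 had higher and 4 lower means, and the median was 0.15. Pglyrp1, a peptidoglycan-binding protein, passed the adjusted p at 112 to 138 CPM in CON and 146 to 207 CPM in SUS libraries, without overlap (log2 fold change 0.48 ± 0.10, adjusted p = 0.0436). Cx3cr1, the fractalkine receptor, had a log2 fold change of -0.16 (adjusted p = 0.683), and Spn and Ceacam1 had values of 0.22 (adjusted p = 0.338) and 0.31 (adjusted p = 0.247). Among 10 genes of survival the median was 0.10, and Csf1r, the receptor for the growth factor CSF1, was at 1820.3 to 2275 and 2032 to 2559.8 CPM (log2 fold change 0.18 ± 0.08, adjusted p = 0.429). Among 10 genes of proliferation it was 0.01, and Mki67 was at 63.0 to 86.5 and 65.1 to 91.2 CPM (log2 fold change 0.08 ± 0.14, adjusted p = 0.945).

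**Figure D4:**
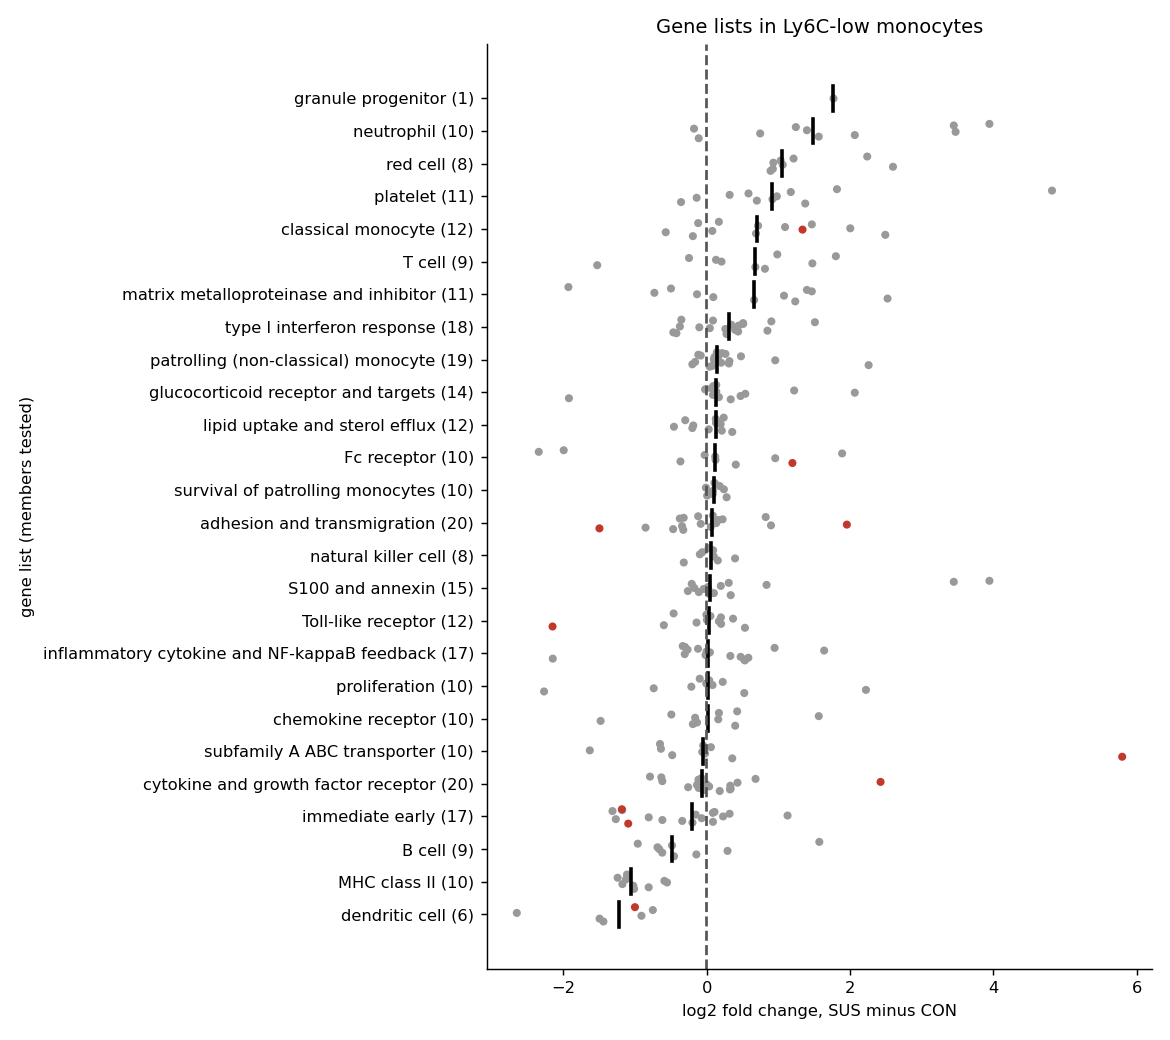
Log2 fold change of SUS minus CON (x axis) for every tested member of the 26 gene lists, with red points for called genes, black bars at each list's median and a dashed line at the median of all genes tested. The dendritic cell and MHC class II lists have the lowest medians, -1.22 and -1.06.

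Inflammatory and stress hormone programmes held no called gene. Among 17 tested inflammatory cytokine and NF-kappaB genes the median was 0.02. Socs3, a feedback inhibitor of cytokine signals, was at 83.4 to 192 CPM in CON and 146 to 401 CPM in SUS libraries (log2 fold change 0.95 ± 0.31, adjusted p = 0.299), and the NF-kappaB subunit Rel at 243 to 277 and 180.3 to 250.5 CPM (log2 fold change -0.27 ± 0.10, adjusted p = 0.300). Il1b and Tnf had log2 fold changes of 0.58 (adjusted p = 0.664) and -0.30 (adjusted p = 0.483). Among 18 tested type I interferon response genes the median was 0.31. Rsad2 (viperin) was at 9.49 to 13.0 and 15.9 to 76.5 CPM without overlap and did not pass (log2 fold change 1.51 ± 0.57, adjusted p = 0.383), and Rtp4 had a log2 fold change of 0.90 (adjusted p = 0.503). Of 14 genes of the glucocorticoid receptor and its targets, 12 had higher and 2 lower means, with a median of 0.13. Fkbp5, a chaperone induced by the receptor, was at 33.2 to 42.2 and 38.0 to 79.2 CPM (log2 fold change 0.54 ± 0.17, adjusted p = 0.232). Cd163, the haemoglobin scavenger receptor that glucocorticoids induce in macrophages, was at 38.1, 19.5, 66.1 and 14.1 CPM in CON and ranged from 3.08 to 13.5 CPM with a median of 10.1 in SUS libraries, without overlap (log2 fold change -1.92 ± 0.53, adjusted p = 0.201). Nr3c1, the receptor itself, had a value of -0.02 (adjusted p = 0.978).

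Matrix metalloproteinases, the enzymes that the study follows in monocytes, were scarce. Of 16 genes of the list, 11 were tested and none was called. Mmp8, a neutrophil-type collagenase, was at 0.613, 2.55, 0.0681 and 0 CPM in CON libraries. SUS libraries ranged from 0 to 8.33 CPM with a median of 1.48. The groups overlapped (log2 fold change 1.47 ± 1.11, adjusted p = 0.781). In Ly6C-high monocytes, normalised separately, Mmp8 ranged over 97.2 to 132 CPM in CON and 189 to 414 CPM in SUS mice. Mmp14, a membrane-bound member, was at 0.161 to 0.876 and 0.435 to 6.12 CPM in Ly6C-low libraries (log2 fold change 2.52 ± 0.97, adjusted p = 0.354). None of the S100 and annexin, chemokine receptor, or lipid uptake and sterol efflux genes was called, with medians of 0.04, 0.01 and 0.13. In those lists S100a13 had a log2 fold change of 0.84 (adjusted p = 0.0978) and Anxa1 one of 0.34 (adjusted p = 0.418).

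The most similar cell type of the series was the Ly6C-high monocyte, and the same contrast was fitted there on its own 18 libraries. Of the 17 genes called in Ly6C-low monocytes, 16 were tested there, 6 were called and 15 had the same direction. Of the 16605 genes tested in both fits, 3.44% were called in Ly6C-high monocytes, 2.27% higher and 1.17% lower. The share of all genes with the same direction was not counted, so the 15 have no baseline here. Fcgr1, Il21r, F11r, Cd38 and Slc46a3 were among the 6. In Ly6C-high monocytes the log2 fold change was 1.17 ± 0.21 (adjusted p = 0.00157) for Fcgr1 and -1.26 ± 0.22 (adjusted p = 0.00144) for Slc46a3. Cd38 had a value of 6.92 ± 1.19 (adjusted p = 0.00144), with levels of 0 to 0.241 CPM in CON and 0.0588 to 32.9 CPM in SUS libraries, which overlap. F11r had one of 5.17 ± 1.15 (adjusted p = 0.00893), at 0 to 2.88 CPM in CON and 5.69 to 115 CPM in SUS libraries. Serpinb6a had the opposite sign there, -0.48 ± 0.38 (adjusted p = 0.452), at 3.13 to 13.7 and 3.42 to 6.70 CPM. Atf3 had a value of -0.04 ± 0.14 (adjusted p = 0.904), at 57.5 to 71.6 and 51.1 to 86.3 CPM. The difference between the cell types was tested as an interaction in 1 fit of the 34 monocyte libraries. None of the 17 genes passed that test, with adjusted p-values from 0.104 to 0.991. An unadjusted p under 0.05 was found for 7 of them and for 2844 of all 21178 genes in that fit. The 17 genes were chosen by their Ly6C-low difference, which is part of this contrast, so the choice itself favours small p-values here. Those with the smallest were Cd38 (unadjusted p = 0.000215, adjusted p = 0.104), Abca13 (unadjusted p = 0.000304, adjusted p = 0.109), Atf3 (unadjusted p = 0.000403, adjusted p = 0.119) and Serpinb6a (unadjusted p = 0.000571, adjusted p = 0.123).

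**Figure D5:**
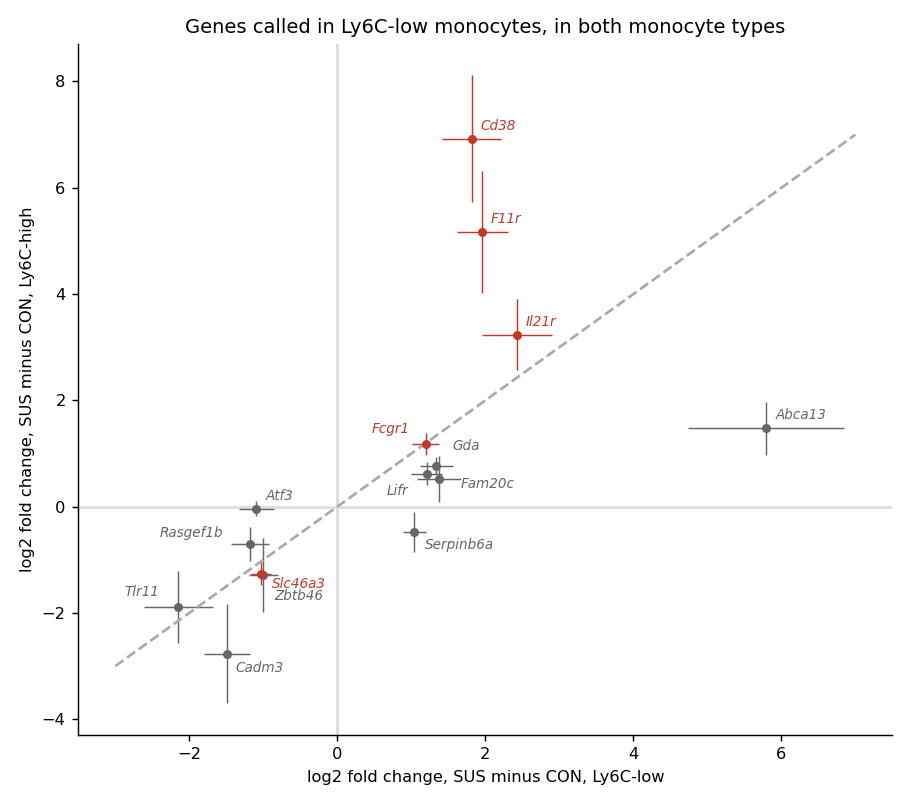
Log2 fold change of SUS minus CON in Ly6C-low (x axis) and Ly6C-high monocytes (y axis) for 15 of the genes called in Ly6C-low monocytes (Adam23 was not tested in Ly6C-high), with bars of 1 SE and a dashed line of equal change. Red genes were called in both cell types, and Serpinb6a is the gene with opposite signs.

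RES mice went through the same defeats, and their comparison uses the same 4 CON libraries. It called 3 genes (0.0154%), among them Fcgr1. For Fcgr1 the log2 fold change against CON was 1.08 ± 0.18 in RES mice (adjusted p = 0.0154) beside 1.20 in SUS mice, and Slc46a3 had -0.82 ± 0.14 (adjusted p = 0.0154) beside -1.03. Il21r had 1.35 ± 0.45 (adjusted p = 0.316) beside 2.43. The values of Atf3 and Rasgef1b in RES mice were -0.31 ± 0.24 (adjusted p = 0.777) and -0.38 ± 0.25 (adjusted p = 0.703), beside -1.09 and -1.18 in SUS mice. The direct test of SUS against RES by edgeR called none of the 17 genes, and no gene at all. Of 19521 genes tested, 740 had an unadjusted p under 0.05, 5 of the 17 among them. The 17 genes were chosen by their difference in these same SUS libraries. That choice itself favours a larger change in SUS than in RES mice and small p-values in this test.

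The calls differed in how far they rested on single libraries. Each of the 10 libraries was left out in turn. Fcgr1 was called in all 10 of these fits. Slc46a3 and Serpinb6a were called in 8 of 10, where the fold fell under the threshold without SUS replicate 4 or CON replicate 3 for Slc46a3 and without SUS replicate 1 or 4 for Serpinb6a, with log2 fold changes down to -0.97 and 0.95. F11r and Abca13 were called in 7 of 10. F11r lost its call without CON replicate 1, 2 or 3, and Abca13 without CON replicate 2, 3 or 4, with adjusted p-values up to 0.102 and 0.0969. Another 11 genes were called in 1 to 4 of the 10 fits, each losing its call without most of the libraries, with adjusted p-values up to 0.189. All 17 genes kept their direction in these 10 fits.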

How the data were processed

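RNA of sorted cells was sequenced as paired-end libraries, and the authors aligned the reads to mm10 with HISAT2 and counted them per Ensembl gene with HTSeq. The deposited values are raw read counts, whole numbers per gene and library in 1 table, with no normalisation. The strand option of the counting is not given in the sources used here. Of 52636 genes in the table, 19521 passed filterByExpr (minimum count 10, minimum total 15) over the 16 Ly6low libraries. Counts were TMM-normalised and fitted with edgeR 4.0.16 (quasi-likelihood, robust, 3 groups) in R 4.3.3. DESeq2 1.42.0 was an alternative, with different filters, libraries, thresholds and covariates. The difference between Ly6C-low and Ly6C-high monocytes was an interaction term over 34 libraries and 21178 genes. Levels are CPM on TMM library sizes and covariate scores used a pseudocount of 0.5 CPM. Coordinates are GENCODE vM21 (GRCm38). The procedure was tested on simulated counts. No 2 libraries of a group held the same values.

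The members and gene lists were chosen with earlier results of these data known. Genes named were called genes, up to 5 further genes of smallest adjusted p in each direction, markers, and for each list the members with the smallest p-values. Other list members were named after their values were seen. Some genes are not reported here. DNA windows came from RefSeq.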

Additional observations from a re-analysis of the deposited data

Results flagged for a closer look

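In 82 groups of 4 or 6 values, the highest or lowest library was checked for a gap to its neighbour that is wide against the range of the group. It was found in 7, where chance gives about 1 in 20. Slc46a3 was at 101 CPM in SUS replicate 6, the highest of its group, and still below all CON libraries. Abca13 was at 0.263 CPM in CON replicate 1, which held all but 1 of the CON counts, and without this library its log2 fold change was 8.28. Atf3 was at 36.5 CPM in CON replicate 3, above the other CON libraries at 28.6 to 29.6 CPM. Pla2g7 was at 211 CPM in CON replicate 1 and Mdh2 at 94.5 CPM in CON replicate 4. Mmp8 was at 8.33 CPM in SUS replicate 1. The granule progenitor markers summed to 4.93 CPM in CON replicate 3.

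The SUS vs. CON difference itself differed between Ly6C-low and Ly6C-high monocytes for L1cam and Eif3l, each with an adjusted p of 0.0406 in edgeR's interaction test over 21178 genes, of which 2844 had an unadjusted p under 0.05. These calls lay close to the threshold. In the same test over all 70 libraries and 12 groups, Eif3l passed (adjusted p = 0.0151) and L1cam did not (adjusted p = 0.129). With 1 Ly6C-low library left out, the adjusted p ranged from 0.0203 to 0.119 for both genes, and L1cam passed only without SUS replicate 1 or 2 and Eif3l only without SUS replicate 2. Their fitted differences stayed between 1.11 and 1.30 for L1cam and between -0.98 and -0.86 for Eif3l. L1cam, a neural adhesion molecule, stood at 396 ± 62.6 CPM in CON and 419 ± 88.2 CPM in SUS Ly6C-low libraries, and at 43.8 ± 3.83 and 20.2 ± 5.79 CPM in Ly6C-high libraries. Its log2 fold change was 0.08 in Ly6C-low and -1.11 in Ly6C-high monocytes, a fitted difference of 1.20. Eif3l, a subunit of translation initiation factor eIF3, stood at 86.2 ± 7.02 and 77.8 ± 11.5 CPM in Ly6C-low libraries. In Ly6C-high libraries it stood at 96.1 ± 8.06 in CON and 164 ± 22.8 CPM in SUS mice, and the fitted difference was -0.92.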

How the results depend on the processing

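The called genes kept their direction under every alternative in which they were tested (Abca13 was not tested with a minimum of 10 counts in every library), while the number of calls depended on the method. Against 17 genes (10 higher, 7 lower), DESeq2 called 103 (64 and 39) with 3 groups and 88 (56 and 32) with SUS and CON libraries alone, all 17 among them both times. Without the filter on low counts 27 were called (14 and 13), 16 of the 17 among them, and a fit of SUS and CON libraries alone called 8 (5 and 3). A test against a 2-fold change (glmTreat) called 0 (0 and 0), where 1857 genes had an unadjusted p under 0.05 in the test against no change. The adjusted p alone gave 47 (31 and 16). GC content and length offsets left 12 (11 and 1). The red cell covariate left 2 (1 and 1). A dendritic cell covariate, chosen after seeing the data, left 1 (1 and 0). Leaving out 1 library gave 6 to 31 genes (5 to 20 higher, 0 to 11 lower), with 6 without CON replicate 1, 3 or 4, 28 without SUS replicate 2 and 31 without SUS replicate 6. The interaction called 2 genes, 20 with all 70 libraries and 12 groups, 4 without the filter, and 0 to 3 with 1 library left out. The cause of these changes was not tested. Among genes named without a call, Ace changed sign to -0.022 with the red cell covariate and -0.13 with the dendritic cell covariate, and ranged from -0.049 to 0.098 with 1 library left out. The Gzma SUS vs CON log2 fold change was -0.090, the Clec9a SUS vs CON log2 fold change 0.071 and that of Lef1 -0.23 with the dendritic cell covariate, all of changed sign. Clec9a is itself among the markers that make up this covariate, so its change shrinks there by construction and says nothing further about Clec9a. With 1 library left out, Lef1 ranged from -0.44 to 0.82 and Gzma from -0.10 to 0.48. Depth limits genes of few counts, such as Abca13 with 0 to 9 counts in the CON libraries. No paired analysis was possible because the labels give no replicate numbers or mice that tie libraries of different groups together.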

Other observations

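Levels in RES mice are given for 4 genes that did not pass the test between SUS and CON although these groups did not overlap, chosen after their values were seen. Cd74, the class II invariant chain, ranged over 856 to 1844 CPM in the 6 RES libraries, against 677 to 1277 CPM in SUS and 1382 to 2962 CPM in CON libraries. Chil3 ranged over 13.6 to 60.8 CPM in RES, against 27.2 to 71 CPM in SUS and 3.85 to 13.1 CPM in CON libraries. Cd163 ranged over 7.63 to 32.2 CPM in RES, against 3.08 to 13.5 CPM in SUS and 14.1 to 66.1 CPM in CON libraries. Rsad2 ranged over 11.0 to 62.0 CPM in RES, against 15.9 to 76.5 CPM in SUS and 9.49 to 13.0 CPM in CON libraries.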
